A study of Arabidopsis thaliana with 16 samples.

Results

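The activation of ARR1 while DELLA proteins are kept high was followed on 4 of the 16 ATH1 arrays of the series, 2 from seedlings of the 35S::ARR1ΔDDK:GR line in paclobutrazol (PAC) and 2 from seedlings of the same line in PAC with dexamethasone (DEX), chosen by their titles. All were whole Arabidopsis thaliana seedlings of the Columbia-0 background, labelled as 6 days old although the protocols of the same labels call them 5 days old, kept in 10 µM PAC for 18 h, and the induced ones received 5 µM DEX for 3 h. The comparison groups, also of 2 arrays each, were the line in PAC with 50 µM GA3, with and without DEX, and wild type Col-0, untreated or with DEX but without PAC. The last 4 arrays, of wild type in PAC or PAC with GA3 exposed for 3 h to the cytokinin benzyladenine (BA, 5 µM), entered the fit and are used here for levels only. The 35S promoter drives the transgene in most tissues, and the labels name one line, so that differences specific to that insertion cannot be told apart from those of the protein.

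ARR1 is a type-B response regulator, a DNA-binding protein that switches on cytokinin-responsive genes after its receiver domain is phosphorylated. The DDK deletion removes that domain and leaves the protein active without cytokinin, and the fused glucocorticoid receptor part (GR) holds it outside the nucleus until DEX is added. DELLA proteins are nuclear repressors of gibberellin responses that are degraded when gibberellin is present. PAC blocks gibberellin synthesis and so lets DELLAs accumulate, and GA3 reverses this. Among the best known direct outputs of type-B regulators are the type-A response regulators, which in turn dampen cytokinin signalling. DELLA protein was not measured on the arrays, and no tested probe set was named ARR1, so that neither arm of the design could be checked by its own transcript. As whole seedlings were sampled, fewer cells of a type and less RNA per cell cannot be told apart.

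Values are log2 expression (GCRMA), on which 1 unit is a 2-fold difference, and each fold change is the mean log2 difference with DEX minus without DEX, with its standard error (SE). Of 22746 probe sets, 9454 reached a log2 value of 4 on at least 2 arrays and were tested with limma over all 16 arrays, and a probe set was called at a Benjamini-Hochberg adjusted p under 0.05. The 2 arrays of a group had correlations of 0.968 to 0.985 over the probe sets, and the SD of the difference between replicates was 0.43 without DEX and 0.40 with DEX in PAC, against 0.30 to 0.43 in the other groups. The median half-width of the 95% interval of a fold change was 0.44. The number of arrays limits this precision, and as the labels call the replicates biological without saying what was kept separate, p-values measure the spread between these arrays.

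With ARR1ΔDDK:GR activated in PAC, 862 probe sets rose (9.12% of those tested) and 786 fell (8.31%). The called rises had a median log2 fold change of 0.89 and the called falls of -0.94, beside -0.03 for all tested probe sets. Changes of 2-fold or more were found in 344 rises and 320 falls, of 4-fold or more in 37 and 15, and of 8-fold or more in 14 and 1, so that the large changes were mostly increases. In 116 of the rises both arrays without DEX lay under 4 and both with DEX at or above it, and in 159 of the falls the reverse was seen. The probe sets that fell stood at a median level of 5.79 without DEX, those that rose at 5.12 and all tested ones at 5.26. The call held in each of the fits that left out 1 of the 4 arrays for 350 rises and 238 falls. The count was lowest, at 880, without replicate 1 of the DEX arrays, and 1034 without replicate 2 of the arrays without DEX. Of the 1648 called probe sets, 894 had a single gene in the annotation and could be named, and 754 could not.

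The cytokinin primary response was at the top of the list. RR16 (ARR16), a type-A response regulator, stood at 4.67 and 5.11 on the arrays without DEX and at 9.88 and 9.90 with DEX. The groups were far apart and the induced arrays nearly coincided, a log2 increase of 5.00 (SE 0.25, n = 2 arrays a group, limma adjusted p = 5.95e-07), or 31.9-fold. ARR15, the other type-A regulator with a tested probe set, was near the floor of the arrays without DEX, at 2.87 and 2.72, and rose to 6.37 and 5.89, an increase of 3.33 (SE 0.29, adjusted p = 2.92e-05) whose size rests on values close to that floor. UGT76C2, the glucosyltransferase that inactivates cytokinins by attaching glucose to a ring nitrogen, went from 3.75 and 4.06 to 5.56 and 6.02, an increase of 1.88 (SE 0.19, adjusted p = 9.49e-05). These were both of the 2 tested type-A regulators and the only tested member of the cytokinin metabolism list. The remaining loci of both lists, 10 and 31 written out, had no tested probe set with a single gene name.

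The levels of these 3 genes in wild type given BA lay between those of the line without and with DEX. RR16 stood at 7.40 and 6.66 in wild type in PAC with BA, ARR15 at 3.74 and 4.40, and UGT76C2 at 5.23 and 4.95. For each of them every BA array in PAC was above both uninduced arrays of the line and below both induced ones. As these genes had large increases in the line, the second part of this order partly follows from their choice. The order was not counted over all probe sets. No test was made between the BA arrays and those of the line, since genotype and treatment both differ.

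**Figure D1:**
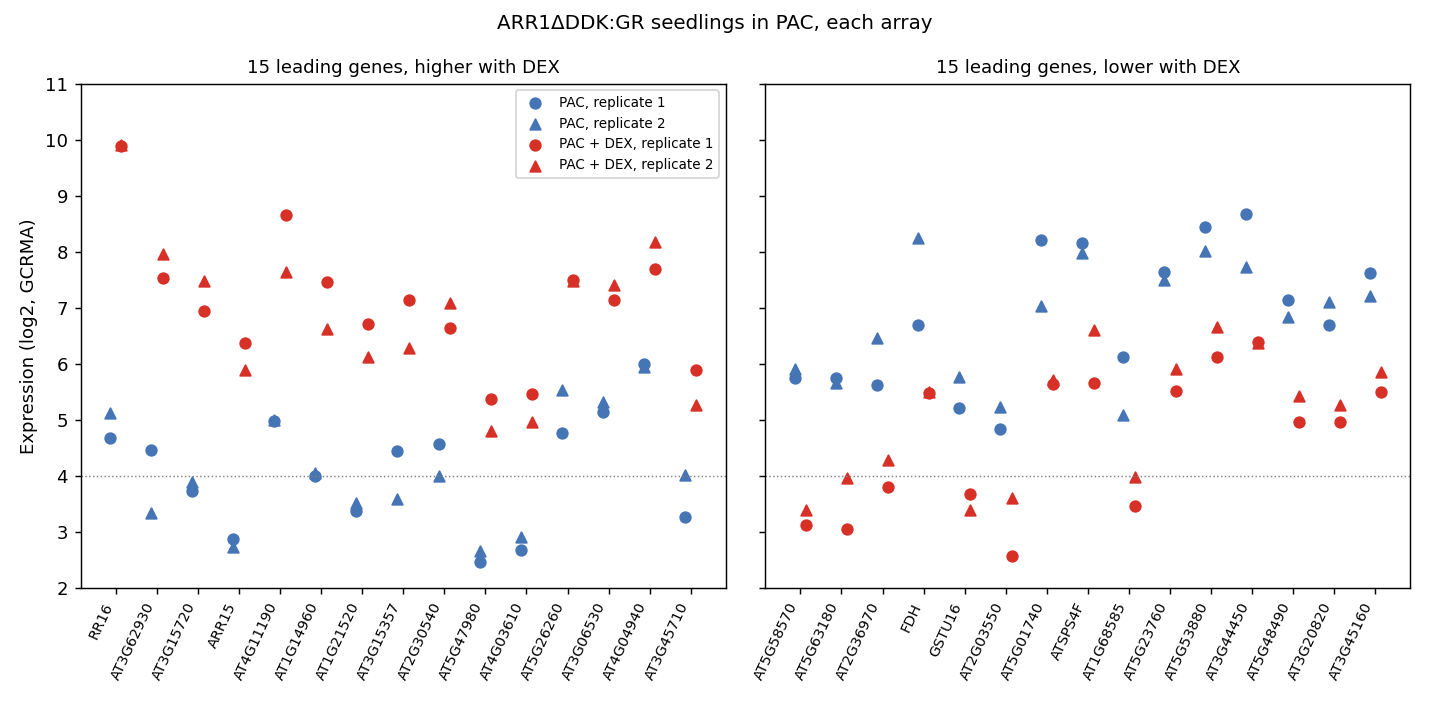
Expression (log2, GCRMA) of the 15 genes with the highest and the 15 with the lowest log2 fold change by the naming rule, on each of the 4 arrays in PAC (blue, without DEX; red, with DEX; circles and triangles, replicates 1 and 2; dotted line, the level of 4 used in the filter). In each gene both DEX arrays lie on one side of both arrays without DEX, as the naming rule required, and the largest step is that of RR16, from 4.67 and 5.11 to 9.88 and 9.90.

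The 15 leading increases ranged from 1.94 to 5.00 and the 15 leading decreases from -2.56 to -1.73. Only 5 of these 30 genes carry a symbol in the annotation used. The other 25 are known here by locus number alone, and their functions are not given here. Next to RR16, AT3G62930 rose from 4.46 and 3.33 to 7.53 and 7.96 (log2 fold change 3.85, SE 0.47, adjusted p = 0.000254). AT3G15720 rose from 3.73 and 3.88 to 6.95 and 7.49 (3.41, SE 0.21, adjusted p = 1.67e-06). The replicates of AT3G62930 without DEX were more than 1 log2 unit apart, whereas those of AT3G15720 nearly coincided.

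Most tested genes of a list for making ribosomes rose. A list of 31 loci for ribosome biogenesis, the processing of pre-ribosomal RNA and the assembly of the subunits in the nucleolus, had 10 tested members, of which 9 rose and none fell, where 9.12% of all tested probe sets rose. The list was chosen with earlier results of these data known, so that this share is a description and not independent evidence. The median of the 10 was 1.19, beside -0.03 for all probe sets, with a range of 0.92 to 1.66. The count was 7 without replicate 2 of the arrays without DEX and 8 without any other array. AT5G14520, annotated as PESCADILLO, a factor for the large subunit, stood at 7.51 and 7.68 without DEX and at 9.04 and 8.99 with it, an increase of 1.42 (SE 0.19, adjusted p = 0.000407). The highest value of the list was that of AT2G40360, which rose from 8.11 and 7.92 to 9.75 and 9.60, by 1.66 (SE 0.20, adjusted p = 0.000222). AT5G15550 rose by 1.53 (SE 0.16) and AT3G03920 by 1.13 (SE 0.16). The RNA helicase gene PRH75 rose by 1.09 (SE 0.34, adjusted p = 0.0449), and its call was lost without replicate 1 or 2 of the arrays without DEX or replicate 2 of those with DEX. The 1 member not called, AT3G05060, had a value of 0.92 with an SE of 0.54.

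The polymerases that transcribe the ribosomal and other small stable RNAs moved with these. NRPA2, the second subunit of RNA polymerase I, which makes the large ribosomal RNA precursor, rose from 4.25 and 3.85 to 5.92 and 5.20 (1.51, SE 0.24, adjusted p = 0.00112). NRPC2, of RNA polymerase III, which makes transfer RNAs and the small 5S RNA, went from 4.70 and 4.87 to 5.74 and 5.82 (0.99, SE 0.16, adjusted p = 0.00145). NRPA1, the largest subunit of RNA polymerase I, gave 0.88 (SE 0.23, adjusted p = 0.0179), a call lost without replicate 2 of the arrays without DEX or replicate 1 of those with DEX. All 3 tested members of the polymerase I and III list rose, beside 9.12% of all tested probe sets. This list, too, was chosen with earlier results of these data known. Of the 5 tested NRPB symbols, named for RNA polymerase II, none was called, with a median of 0.36 and values from 0.06 to 0.51. As a symbol does not show whether a subunit is shared between polymerases, the 2 sets do not separate polymerase II from I and III. The difference between the 2 sets was not tested.

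Several genes with a symbol, chosen after their values were seen, have related roles. IMP4, named after a yeast component of the small-subunit processing complex, rose from 4.84 and 5.01 to 6.10 and 6.02 (1.14, SE 0.16, adjusted p = 0.00056). REBELOTE (RBL), a nucleolar protein of Arabidopsis, rose from 4.90 and 5.07 to 6.76 and 6.56 (1.67, SE 0.19, adjusted p = 0.000169). YAO, a nucleolar WD-repeat protein required in the embryo sac, rose by 1.42 (SE 0.28) and TRM82, named after a yeast subunit of a transfer RNA methyltransferase, by 1.16 (SE 0.23). The calls of these 4 held without any of the 4 arrays. Smaller increases were those of RRP41, a core subunit of the RNA exosome (0.96, SE 0.25), PGY1, a large-subunit ribosomal protein (0.70, SE 0.20), and EIF4A-2, a translation initiation helicase (0.74, SE 0.17). The first of these, like PGY1, was not called without replicate 2 of the arrays without DEX or replicate 1 of those with DEX, and EIF4A-2 was not called without replicate 1 of either group.

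A few genes of DNA replication also rose, again chosen after their values were seen. PROLIFERA (PRL), the MCM7 subunit of the replicative helicase, went from 4.90 and 5.37 to 5.97 and 6.50 (1.11, SE 0.22, adjusted p = 0.00464). POLA3, a subunit of the DNA polymerase that starts new strands, went from 5.13 and 5.75 to 6.82 and 6.99 (1.47, SE 0.20, adjusted p = 0.000501). Both groups of arrays were separate in both genes, as is likely for called genes chosen after their values were seen. The histone H2B symbols gave a weaker picture, with 1 of 4 called, where 9.12% of all tested probe sets rose: HTB1 at 0.71 (SE 0.21, adjusted p = 0.0369) and the family median at 0.34. The HTB1 call was kept only without replicate 1 of the arrays without DEX, when 2 of the family were called.

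Other genes rose outside these groups. SPATULA (SPT), a bHLH transcription factor of carpel development and seed germination, was near the floor without DEX, at 2.46 and 2.44, and reached 4.02 and 3.88 (1.50, SE 0.16, adjusted p = 0.000129). HMT-1, a homocysteine methyltransferase, rose by 1.17 (SE 0.25, adjusted p = 0.00637). GIGANTEA (GI), a clock and flowering gene, rose by 1.03 (SE 0.28, adjusted p = 0.0252), without a call when replicate 2 of the arrays without DEX or replicate 1 of those with DEX was left out. Of 6 genes that the study followed up by other methods, and had picked from these same arrays, 2 had a tested probe set with a name. DECOY went from 5.38 and 5.03 to 6.27 and 6.22 (1.04, SE 0.19, adjusted p = 0.0033) and AT1G07830 from 6.22 and 5.55 to 6.76 and 6.52 (0.76, SE 0.20, adjusted p = 0.0221), the latter lost without replicate 2 of the arrays without DEX or replicate 1 of those with DEX. As the study chose them on these samples, their increases are not independent evidence.

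**Figure D2:**
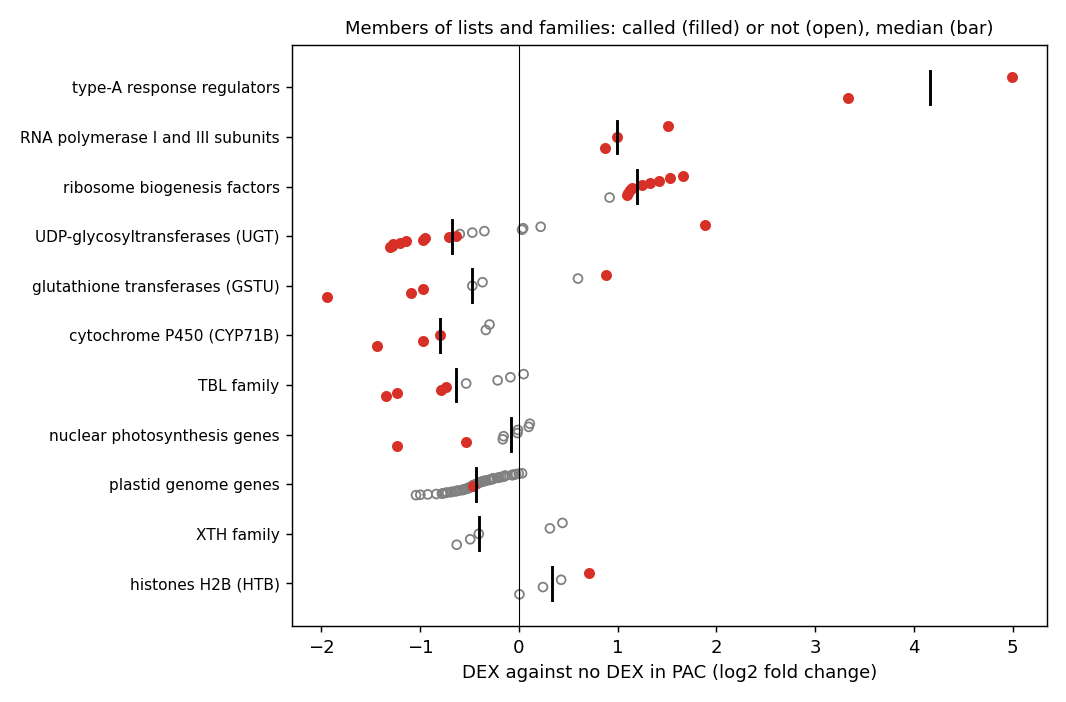
Log2 fold change with DEX in PAC (x axis) of each tested member of lists and symbol families (rows); filled points were called, open ones were not, and bars mark the median. Ribosome biogenesis factors and polymerase I and III subunits all lie above 0, whereas 9 of 16 UGT genes are filled points below 0, with UGT76C2 apart at 1.88.

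Among the decreases with a symbol were genes of conjugation, carbon metabolism and the cell wall. The UDP-glycosyltransferases (UGT), enzymes that attach sugars to hormones and secondary metabolites, had 16 tested members with a UGT symbol. Members known by locus number alone are not counted. Of these 9 fell, where 8.31% of all tested probe sets fell, 1 rose, and the median was -0.67. The one that rose was UGT76C2. The count of falls was 6 to 9 over the fits that left out 1 array. UGT74D1, which glucosylates auxins, fell from 5.59 and 6.03 to 4.45 and 4.56 (log2 fold change -1.31, SE 0.18, adjusted p = 0.000606). UGT78D1, a flavonol rhamnosyltransferase, fell from 6.79 and 6.96 to 5.67 and 5.51 (-1.28, SE 0.23, adjusted p = 0.00291). UGT76B1 gave -1.20 (SE 0.19) and UGT88A1 -0.97 (SE 0.16). In all 4 genes the arrays with DEX lay below both without, as is likely for called genes. IAGLU, annotated as an indole-3-acetate glucosyltransferase and outside this symbol family, fell from 6.37 and 6.55 to 4.88 on both arrays (-1.58, SE 0.21, adjusted p = 0.000486).

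Other enzyme families of the same kind held falls as well. Of 7 tested tau-class glutathione transferases (GSTU), which conjugate glutathione to reactive compounds, 3 fell and 1 rose (8.31% and 9.12% over all tested probe sets), with a median of -0.47. GSTU16 was among the leading decreases, from 5.21 and 5.76 to 3.67 and 3.40 (-1.95, SE 0.20, adjusted p = 9.08e-05), and GSTU18 gave -0.97 (SE 0.19). GSTU26 gave 0.89 (SE 0.26, adjusted p = 0.0343), a call kept only without replicate 2 of the DEX arrays. The family median ranged from -0.81 to -0.29 over the fits without 1 array and was weakest without that same array. Of 5 tested cytochrome P450 genes of the CYP71B subfamily, which share much of their sequence, 3 fell, again beside 8.31% over all, with a median of -0.80. CYP71B26 went from 7.13 and 7.07 to 5.73 and 5.59 (-1.44, SE 0.18, adjusted p = 0.000299), and the neighbouring CYP71B34 gave -0.80 (SE 0.16).

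Cell wall genes were split. Of 8 tested members of the TRICHOME BIREFRINGENCE-LIKE family (TBL), whose studied members add acetyl groups to wall polysaccharides, 4 fell (8.31% over all tested probe sets) and none rose, with a median of -0.63. The count was 1 or 2 when any 1 of the 4 arrays was left out, whereas the median stayed between -0.71 and -0.54. TBL37 fell from 4.65 and 5.53 to 3.67 and 3.81 (-1.35, SE 0.24, adjusted p = 0.00245), a call kept in all of these fits. TBL25 went from 5.17 on both arrays to 3.96 and 3.91 (-1.23, SE 0.29, adjusted p = 0.0108), a call kept only without replicate 1 of the arrays without DEX. The pectin methylesterase gene PMEPCRF fell from 4.87 and 4.90 to 3.68 and 3.83 (-1.13, SE 0.21, adjusted p = 0.00347). None of 8 tested expansins and xyloglucan endotransglucosylases, which loosen or remodel the wall, was called, and their median was 0.01. XTH16, the one with the smallest adjusted p, gave -0.63 (SE 0.23, adjusted p = 0.0803).

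Genes of carbon metabolism and the plastid were among the larger decreases with a symbol. ATSPS4F, a sucrose phosphate synthase, fell from 8.16 and 7.97 to 5.66 and 6.59 (-1.94, SE 0.33, adjusted p = 0.00191). The formate dehydrogenase gene FDH fell from 6.70 and 8.24 to 5.48 and 5.49 (-1.98, SE 0.38, adjusted p = 0.00371), and its arrays without DEX were themselves more than 1 unit apart. SWEET1, a sugar transporter, fell from 4.55 and 4.34 to 3.38 and 3.11 (-1.20, SE 0.22, adjusted p = 0.00289). It was the only one called of 4 tested SWEET symbols, where 8.31% of all tested probe sets fell. NdhS, a subunit of the chloroplast NADH dehydrogenase-like complex, fell from 8.74 and 8.13 to 7.06 and 7.13 (-1.34, SE 0.25, adjusted p = 0.00344). GAMMA-VPE, a vacuolar processing protease, gave -1.05 (SE 0.21, adjusted p = 0.00446). The calls of these 5 held without any of the 4 arrays, and NdhS and GAMMA-VPE were chosen after their values were seen.

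Photosynthesis genes gave few calls. Of 8 tested nuclear photosynthesis genes 2 were called, both lower (8.31% of all tested probe sets fell), and the median of the 8 was -0.08. None of the 8 was called in any of the fits without 1 of the 4 arrays. LHCB4.2, one of 3 genes for the antenna protein CP29, stood at 9.14 and 9.02 without DEX and at 7.82 and 7.88 with it (-1.23, SE 0.33, adjusted p = 0.0233), and LHCB4.3, of the same protein, gave -0.54 (SE 0.16, adjusted p = 0.0349). The related LHCB4.1 stood at 10.44 and 10.42 against 10.31 and 10.23 (-0.16, SE 0.19, adjusted p = 0.616). PORB, an enzyme of chlorophyll synthesis, gave -0.87 (SE 0.19, adjusted p = 0.00753), not called without replicate 2 of the arrays without DEX or replicate 1 of those with DEX. Transcripts of the plastid genome also gave few calls, and no test compared them with the nuclear genes. Of 59 tested, 58 had a value below 0 with a median of -0.43, yet only 1 was called. Their median level was 8.32 and 8.47 without DEX and 7.63 and 8.39 with it, so that 1 DEX array carried most of the difference, and without replicate 1 of the DEX arrays the median fold change was -0.08. With GA3 in the medium the median of the same transcripts was -0.00.

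Further single genes fell in other pathways, with calls that depended on 1 array. BCAT4, which starts the chain elongation of methionine for glucosinolates, went from 9.06 and 9.47 to 7.24 and 7.70 (-1.79, SE 0.41, adjusted p = 0.00946), lost without replicate 2 of the arrays without DEX or replicate 1 of those with DEX. STOMAGEN, a secreted peptide that promotes stomata, gave -1.16 (SE 0.27, adjusted p = 0.0113), lost without replicate 1 of either group. SIAMESE (SIM), a cell-cycle inhibitor of trichomes, gave -0.94 (SE 0.30, adjusted p = 0.0469), lost without replicate 1 of either group or replicate 2 of the DEX arrays. PDF1.2b, a jasmonate-responsive defensin, gave -2.13 (SE 0.59, adjusted p = 0.0254) on a probe set that may also read related defensins, and was called only when replicate 1 of the arrays without DEX was left out. These 4 were named for a list or after their values were seen.

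Gibberellin genes were hardly represented. Of 21 loci written out, 2 had a tested probe set with a name. XERICO, a DELLA target that raises abscisic acid, stood at 3.96 and 3.43 without DEX and at 3.21 and 2.97 with it (-0.60, SE 0.24, adjusted p = 0.109). AT5G50915 went from 3.56 and 3.52 to 4.95 and 4.64 (1.25, SE 0.31, adjusted p = 0.0143), a call lost without replicate 2 of the arrays without DEX or replicate 1 of those with DEX. No marker locus of shoot or root passed the test. The 24 shoot loci are the written-out part of the nuclear photosynthesis list above, from which LHCB4.2 and LHCB4.3, matched by symbol, fell. Of the 24 loci 2 were tested, LHCB4.1 and rubisco activase (RCA), at 10.66 and 10.74 without DEX and 10.84 and 10.53 with it. Of 18 root loci 2 were tested, PYK10, a root β-glucosidase, at 11.03 and 11.51 against 11.31 and 11.28, and the root-hair expansin EXPA18 at 3.47 and 3.81 against 3.95 and 3.36. None of these 4 was called, none is at 0, and the sum of the linear levels of each pair ranged from 2674 to 3106 for shoot and from 2099 to 2928 for root over the 4 arrays.

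DEX can act on seedlings that lack the transgene. The wild type arrays compare DEX with seedlings labelled untreated, both without PAC, so that effects of DEX and of handling may both enter. Untreated wild type and wild type with DEX differed in 70 probe sets (0.74%), 62 higher and 8 lower. Of these, 49 were called in the same direction in the line in PAC, 42 higher and 7 lower, which is 70.0% of the wild type calls and 2.97% of those of the line. Over all the rises in the line the median change in wild type was -0.00, and over all the falls -0.08, beside -0.02 for all tested probe sets. Most of the probe sets called in the line were thus not called in wild type, but some of the largest increases were. AT4G11190 rose from 4.97 and 4.99 to 8.66 and 7.64 in the line and from 5.08 and 5.15 to 8.99 and 8.86 in wild type (log2 fold changes 3.17, SE 0.35, and 3.81, SE 0.35). AT1G14960 gave 3.01 and 2.85, AT5G47980 2.52 and 2.69, AT5G26260 2.33 and 2.67, and AT3G45710 1.94 and 1.95 in the line and in wild type, respectively. The wild type call of AT3G45710 was lost without either untreated array or without replicate 2 of the DEX arrays. The sulfurtransferase gene STR18 gave 1.78 and 2.20. The difference between line and wild type was within error in these 6 genes, from -0.64 to 0.16 with adjusted p of 0.531 to 0.995. The levels of AT4G11190 were also high in wild type with PAC and BA, at 8.44 and 9.04. Those of STR18 were 7.67 and 8.44 there, beside 5.10 and 4.76 in untreated wild type. The mean levels with PAC and BA were 6.85 for AT1G14960, 5.05 for AT5G47980, 7.42 for AT5G26260 and 5.14 for AT3G45710. In untreated wild type these genes had means of 4.83, 2.66, 5.34 and 3.40. What the DEX and the BA treatments share was not tested.

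**Figure D3:**
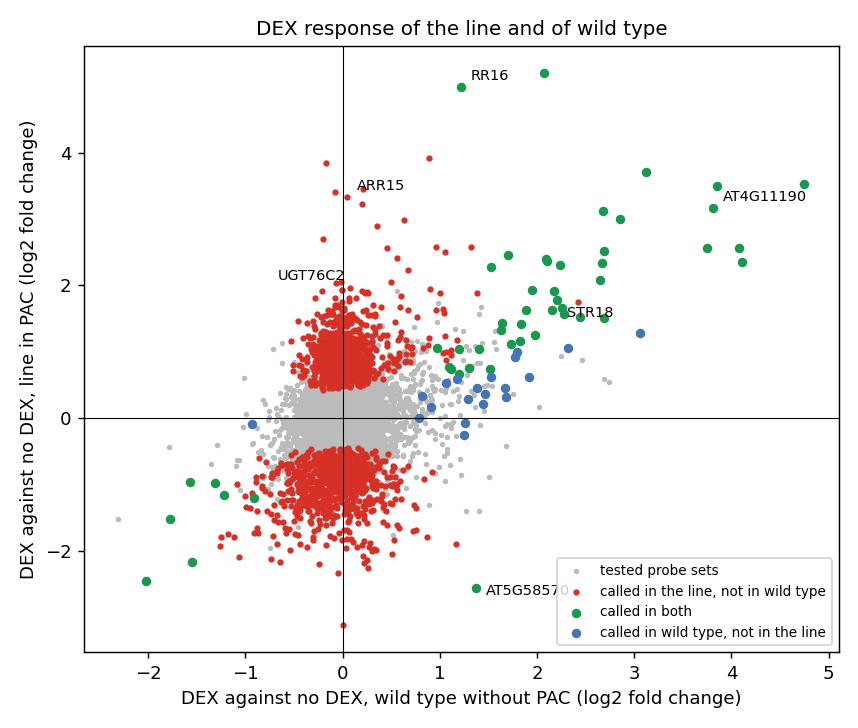
Log2 fold change with DEX in the line in PAC (y axis) against that in wild type without PAC (x axis) for the 9454 tested probe sets; red points were called in the line and not in wild type, green ones in both and blue ones in wild type and not in the line. The red cloud stands upright around 0 on the x axis, AT4G11190 lies near the diagonal, and AT5G58570 fell by 2.56 in the line and rose by 1.37 in wild type.

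The difference between the response of the line in PAC and that of wild type was itself tested, and 436 probe sets (4.61%) were called, 265 higher and 171 lower, of which 419 were also called in the line in the same direction. This test rests on 8 arrays and on wild type that had no PAC, so that genotype and PAC cannot be told apart in it. Without replicate 2 of the wild type DEX arrays the count was 41, and without replicate 1 of the untreated wild type arrays it was 64. Of the 30 leading genes, 20 differed from wild type, 9 of the increases and 11 of the decreases, and 6 of them did so whichever of the 8 arrays was left out. RR16 was raised in wild type too, from 4.28 and 3.99 to 5.08 and 5.64 (1.22, SE 0.25, adjusted p = 0.0484), a call lost without either untreated array or without replicate 2 of the DEX arrays, and its increase in the line was larger by 3.78 (SE 0.36, adjusted p = 0.000289). ARR15 did not pass the test in wild type (0.05, SE 0.29), and the difference was 3.28 (SE 0.41, adjusted p = 0.00252). Of the 10 tested ribosome biogenesis factors 6 differed from wild type, where their median was 0.03, and of the 16 UGT genes 5 did. These counts were 1 and 0 without replicate 2 of the wild type DEX arrays, 1 and 1 without replicate 1 of the untreated ones, and at most 5 and 5 without any other array. One gene, AT5G58570, moved in opposite directions. It fell from 5.75 and 5.90 to 3.13 and 3.40 in the line and rose from 3.54 and 4.01 to 5.10 and 5.19 in wild type, a difference of -3.93 (SE 0.26, adjusted p = 1.82e-05).

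Whether the response needs high DELLA levels is asked by the same comparison made with GA3. DELLA protein was not measured, and in the line without DEX only 11 of 9454 probe sets were called between PAC and PAC with GA3. The difference between the DEX responses in PAC and in PAC with GA3 was called for 0 of 9454 probe sets (0%) by limma, with 188 at an unadjusted p under 0.05 and a smallest adjusted p of 1.00. A Z test called 1506 of 22746, but it ignores replicate spread, is not adjusted and is scaled by the SD of the same difference. Some calls are therefore certain in it, and its count is no evidence of a difference. The median half-width of the 95% interval of this difference was 0.62 for a single probe set, before any adjustment, and a call over all probe sets needed more: the difference of -1.07 (SE 0.26) of AT5G58570 was not called. A missed threshold does not show that the responses are alike. Both comparisons used separate arrays of the line. The probe sets that rose in PAC had a median of 0.92 with GA3 and those that fell one of -0.80, beside -0.02 for all.

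RR16 rose by 5.10 with GA3, and its difference between the media was -0.10 with a 95% interval from -0.87 to 0.68. ARR15 rose by 4.23 with GA3, against 3.33 in PAC, a difference of -0.89 with an interval from -1.79 to 0.01. UGT76C2 gave 2.37 and a difference of -0.49 (-1.08 to 0.11). For none of these 3 cytokinin genes was the estimate larger in PAC. The ribosome biogenesis factors had a median of 1.26 with GA3 and of 1.19 in PAC, and 9 of the 10 were called in each, where 17.4% of all tested probe sets were called in PAC and 18.1% with GA3. The UGT family gave -0.57 with GA3 and -0.67 in PAC, with 8 and 10 of 16 called in either direction.

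Over the 15 leading increases the difference between the media ranged from -0.89 to 0.37, with 8 larger in PAC, and in 7 the interval excluded a 2-fold difference. Over the 15 leading decreases it ranged from -1.07 to 0.09, with 13 larger in PAC, and in 2 the interval excluded a 2-fold difference. The genes were chosen for large changes in PAC, and this choice by itself favours larger values in PAC than with GA3. The comparison with GA3 over them is thus a description, with no test. The largest differences among these 15 were those of AT5G58570, at -2.56 in PAC and -1.49 with GA3 (interval of the difference -1.64 to -0.51), AT1G68585, at -1.87 and -1.05 (-1.77 to 0.13), and AT2G36970, at -2.01 and -1.29 (-1.75 to 0.31). GSTU16, also of the 15, gave -1.95 and -1.25 (-1.31 to -0.09). Outside them PDF1.2b gave -2.13 and -0.86 (-3.08 to 0.53) and IAGLU -1.58 and -0.87 (-1.36 to -0.06). In the other direction SPT gave 1.50 in PAC and 2.20 with GA3 (-1.21 to -0.21). These intervals are for single genes, and none of the differences passed the adjustment over all probe sets. Mean levels without DEX were 5.82 in PAC and 4.80 with GA3 for AT5G58570, 5.48 and 4.88 for GSTU16, and 6.46 and 5.72 for IAGLU. With DEX they were 3.26 and 3.32, 3.53 and 3.63, and 4.88 and 4.85. These genes thus differed between the media mainly without DEX. The levels of PDF1.2b were 7.62 and 7.90 without DEX and 5.49 and 7.04 with it. PDF1.2b thus differed between the media mainly with DEX. SPT stood at 2.45 and 2.46 without DEX, near the floor of the arrays, where a lower level in either medium could hardly show. With DEX it stood at 3.95 and 4.67. Of the followed-up genes, DECOY gave 1.04 in PAC and 0.73 with GA3 (difference 0.31, interval -0.28 to 0.90) and AT1G07830 gave 0.76 and 0.32 (difference 0.44, interval -0.18 to 1.07). The mean level of DECOY was higher with GA3 than in PAC both without DEX (5.86 against 5.20) and with DEX (6.59 against 6.24).

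**Figure D4:**
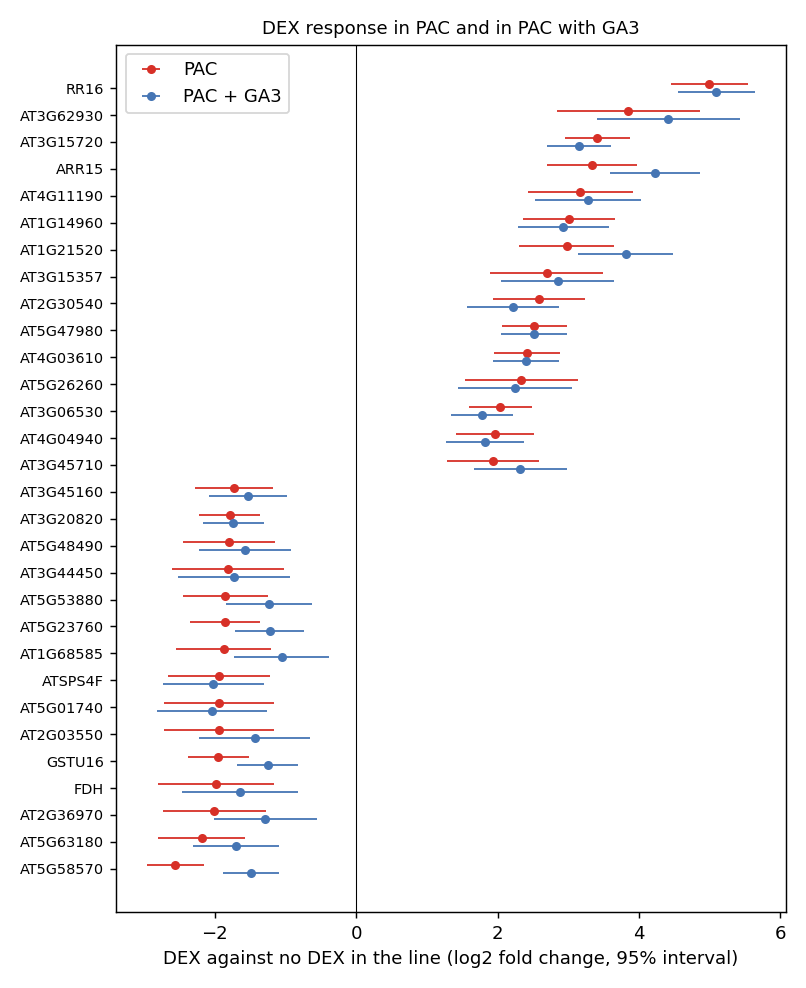
Log2 fold change with DEX in the line (x axis, points with 95% intervals) in PAC (red) and in PAC with GA3 (blue) for the 30 leading genes (y axis). All 30 have the same sign in both media, the red and blue points of RR16 lie at 5.00 and 5.10, and those of AT5G58570 lie apart at -2.56 and -1.49.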

How the data were processed

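The 16 arrays (Affymetrix ATH1) held 8 groups of 2. The log2 expression values deposited by the authors were made with GCRMA, per the labels, which corrects the background, normalizes between arrays and summarises each probe set; its version is not given in the sources used here. Of 22810 probe sets, 64 control sets (AFFX) and 13292 dim ones were left out. Of the 9454 tested, 4925 had 1 gene in the platform annotation, with symbols updated through NCBI identifiers, and only these were named; 796 of them have a symbol other than a locus number.

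A group-means model was fitted to all 16 arrays with limma 3.58.1 in R 4.3.3 (8 residual and 4.66 prior degrees of freedom). Tests were two-sided, with Benjamini-Hochberg adjustment over all tested probe sets. Each comparison was repeated with every probe set tested, with a stricter floor (6), after quantile normalization or after centring arrays on their 75th percentile, with robust eBayes along an intensity trend, with a block for replicate number, from its own arrays alone, without each array in turn (where 1 array remained, its spread was taken from the other groups), and with a Z test at 1.96, which is one reading of the Z-score transformation named in the study's methods.

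The genes named were the 15 highest and the 15 lowest fold changes among single-gene probe sets called in the fit of all arrays and in each fit without 1 of the 4 arrays, with both DEX arrays on one side, of each list up to 4 members, by smallest adjusted p, the written-out cytokinin and gibberellin loci and the followed-up genes; others are said to be chosen after their values were seen. The members and lists were chosen with earlier results of these data known. Lists were matched by locus, symbol or whole words of the annotation's synonyms, a matching that was tightened after the annotation was seen. The 32 families were symbols sharing their leading letters with 4 or more tested members, and CYP71B was taken from one of them. Python 3.11.15 with matplotlib 3.10.9 made the figures.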

Additional observations from a re-analysis of the deposited data

Results flagged for a closer look

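Among the 30 leading genes, 20 had a DEX response in the line in PAC that differed from that in wild type by the test of the difference itself, at a limma adjusted p under 0.05. The leading genes were chosen for large changes in the line, and the wild type arrays had no PAC. Among the increases the log2 difference was 3.78 for RR16, 4.02 for AT3G62930, 3.49 for AT3G15720, 3.28 for ARR15, 2.34 for AT1G21520, 2.89 for AT3G15357, 1.86 for AT4G03610, 2.11 for AT3G06530 and 1.88 for AT4G04940. Among the decreases it was -3.93 for AT5G58570, -2.41 for AT5G63180, -2.31 for AT2G36970, -2.32 for FDH, -1.99 for GSTU16, -2.09 for AT2G03550, -2.21 for ATSPS4F, -2.15 for AT1G68585, -1.96 for AT5G23760, -2.07 for AT5G53880 and -1.48 for AT3G20820. The 6 that kept this call whichever of the 8 arrays was left out were RR16, AT3G15720, ARR15, AT3G06530, AT5G58570 and GSTU16. Of the 20 calls, 13 were lost without replicate 2 of the wild type DEX arrays and 10 without replicate 1 of the untreated wild type arrays.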

How the results depend on the processing

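The count of probe sets called for DEX in PAC, 1648, stayed within 1.5 times under quantile normalization, centring, eBayes with trend and robust settings and no filter. The Z test called 1475, but it scales each difference by its own SD over all probe sets, with a fixed cut and no adjustment. It therefore calls some share of the probe sets in any comparison, and its counts are no check on the others. It was 944 with the floor of 6, which tests fewer probe sets, 412 with only the 4 arrays of the comparison, which leaves fewer degrees of freedom, and 880 to 1356 over the fits without 1 array. For DEX in wild type, 70, it was 41 with the floor of 6, 38 with only the arrays of the comparison, 967 by the Z test and 29 to 72 without 1 array. For the response net of wild type, 436, it was 280 without a filter, 171 with only the arrays of the comparison, 1479 by the Z test and 41 to 451 without 1 array. For the difference from GA3, 0, it was 24 without a filter, 1506 by the Z test and 0 without any 1 array; the cause was not tested. With the replicate number as a block the calls were 1888, 85, 576 and 0; of the genes named 1 changed its call, XTH16, with an adjusted p of 0.0162 in place of 0.0803. The deviations of same-numbered arrays correlated at 0.41 between the line in PAC without and with DEX and at 0.11 to 0.48 over the 15 pairs of groups without BA, a hint from the data, as the labels do not say that the numbers mark a shared batch. Among the 82 genes named, none changed sign with a call under the alternatives run, and 48 of the 76 called kept the call in each alternative that tested them (the floor of 6 left 56 of the 82). The call was lost by 24 with only the arrays of the comparison, by 14 without a filter and by 16 in at least 1 fit without an array.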
